A study of Mus musculus with 10 samples.

Results

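The oligodendrocyte lineage genes Olig1, Olig2, Sox10, Nkx2-2, Pdgfra, Cspg4, Mbp and Myrf were followed through the open chromatin of cultured mouse neural stem and progenitor cells (NSPCs). These 8 genes, out of 21951 protein-coding gene entries of the mouse annotation, were given by name. Every peak in a gene body or within 50 kb of it was taken when the nearest protein-coding transcription start site (TSS) belonged to one of the 8 genes. Overlapping peaks of the 6 ATAC-seq libraries were merged into sites, and 85 of 108367 sites fell to these genes.

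Oligodendrocytes, the cells that wrap axons in myelin, arise from neural stem cells through a dividing intermediate, the oligodendrocyte precursor cell. OLIG2 and its neighbour OLIG1 are basic helix-loop-helix factors that specify the lineage, SOX10 and NKX2-2 act with them in precursors and at the onset of differentiation, and MYRF drives myelin genes in maturing cells. PDGFRA, the receptor that precursors use to respond to platelet-derived growth factor, and CSPG4, the surface proteoglycan NG2, mark precursors, whereas MBP is a main protein of compact myelin. BMP signalling, used here to impose quiescence, is known to oppose oligodendrocyte formation, and OLIG2 is also found in dividing progenitors of the postnatal subventricular zone.

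All cultures were early-passage NSPCs from C57BL/6 mice at postnatal day 5, which hold a mixture of stem and progenitor cells. Activated cells grew with FGF2 and EGF, each at 20 ng/ml. Quiescent cells were kept without EGF in FGF2 and BMP4 at 25 ng/ml, for 4 days by the sample labels and for a shorter time by the study's methods. Reactivated cells had the BMP4 medium for 4 days and were then returned to growth medium for 9 to 12 days. Each state had 2 ATAC-seq libraries, which measure the insertion of a transposase into open chromatin. The quiescent and activated states each had 1 ChIP-seq library for H3K4me3, a histone mark of promoters, with its own input. The labels do not say whether replicates came from separate animals, so p-values measure the spread between these libraries.

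Library totals were not used here, so depth is described from the peak lists. Peaks per list were 54713 and 60355 in quiescent libraries, 58327 and 47037 in activated and 106270 and 106830 in reactivated cells. The most common background under a peak, an estimate of the genome-wide read pileup, was 12.1 in quiescent replicate 2 and 6.01 to 6.61 in the others. Peaks in which the local background exceeded 1.5 times that level made up 6.98 and 12.1% of the quiescent lists, 14.1 and 18.6% of the activated and 32.0 and 37.2% of the reactivated lists. As a check of the labelled cell type, 9 of 10 neural stem cell markers (all but Prom1) had a promoter peak in all 6 libraries. Of the 21829 gene symbols with a protein-coding TSS on the autosomes, X or Y, 52.2% did, while 0 of 8 microglial and 0 of 8 endothelial and mural markers did. In each of these 2 lists 5 of 8 had none in any library, as had 7086 of the 21829. P2ry12 (microglial) and Kdr (endothelial) lacked one in quiescent replicate 1 alone, as did Prom1. These are bulk cultures, so fewer cells with an open site and less opening of it per cell cannot be told apart.

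Around the 8 genes the ATAC-seq lists held 37 and 47 peaks in quiescent libraries, 61 and 43 in activated and 89 and 84 in reactivated libraries. Per 1000 peaks of the list this was 0.676 and 0.779, then 1.05 and 0.914, then 0.837 and 0.786. These counts take peaks that merge into 1 site separately. By site the numbers were 33 and 41, then 47 and 32, then 67 and 68. A site was called open in a state when both libraries had a peak there and closed when neither had one. Closed therefore means that no peak was called, and the lowest pileup at a called summit anywhere in a list was 16 to 25 reads. By that rule 26 of the 85 sites were open in quiescent cells (31.7% of all sites were), 31 in activated cells (29.1%) and 55 in reactivated cells (61.1%). Where the local background is raised, a call needs more reads. At a site upstream of Olig1, reactivated replicate 2 had 60 reads over a local background 3.95 times the genome-wide level. That peak stood at percentile 0.869 of its list. Closed thus does not mean the same limit at every site or in every state.

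A promoter site was open in all 3 states at 5 of the 8 genes, against 52.2% of all genes. Open throughout were 18 sites (21.3% of all sites), among them the promoters of Olig1, Olig2, Myrf and Cspg4 and an internal promoter of Pdgfra. In activated cells 5 sites were open that were closed in quiescent cells (4.24%), at Olig1, Olig2, Nkx2-2, Cspg4 and Mbp. The opposite class held 3 sites (6.26%), at Olig1, Nkx2-2 and Mbp. Reactivated cells had 17 open sites that were closed in quiescent cells (23.5%) and 6 closed in both other states (14.8%), and 0 sites open in activated cells were closed in reactivated cells (0.26%). As shares of the 85 sites the 5, 3 and 6 sites made up 5.88, 3.53 and 7.06%, and the gaps from all sites were not tested. With each library left out in turn the counts ranged from 5 to 12, 3 to 10 and 7 to 17. In these runs the state of the missing library was called from 1 library, so no site could be in between. The ranges therefore include this change of rule. With lists of equal length 0 sites were open in reactivated cells alone. A further 22 of the 85 sites had a peak in 1 library (31.0% of all sites).

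**Figure D1:**
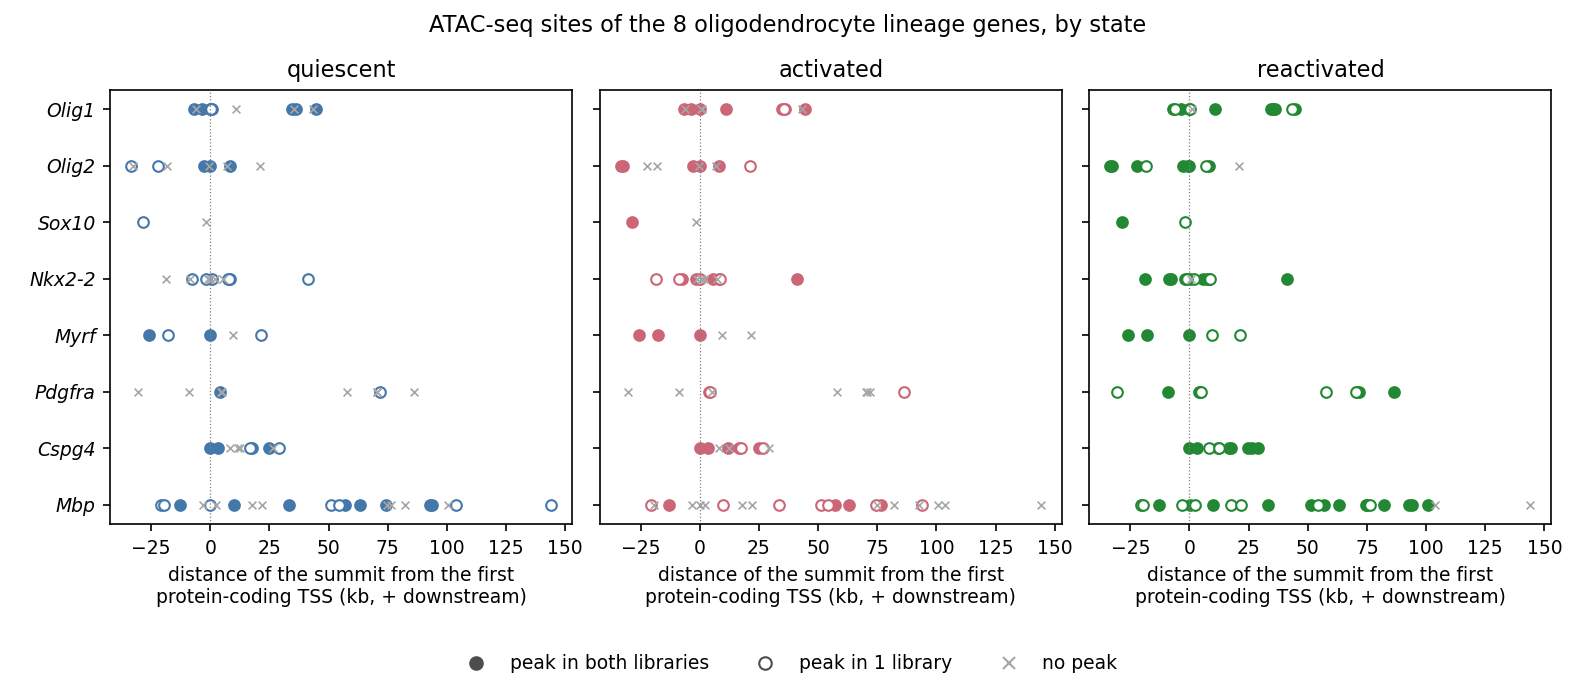
Position of the 85 sites around the 8 genes, in kb from the first protein-coding TSS in the direction of transcription, with a panel for each state and a row for each gene. Filled points have a peak in both libraries of the state, open points in 1 and crosses in neither. Reactivated cells have the most filled points (55). Mbp has 8 in quiescent and 4 in activated cells, the latter set by activated replicate 2, which has a peak at 4 Mbp sites against 11 in activated replicate 1.

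Sites are named by gene and distance of the strongest summit from the first TSS. The summit with 100 bases to each side is printed for 3 sites of different genes that were open in activated and reactivated cells and not open in quiescent cells, each with a motif of the SOX or OLIG family. Capitals mark the SOX core in either form, ACAATG at Olig2 −33.4 kb (read on the minus strand, so printed as CATTGT) and ACAAAG at Nkx2-2 +5.5 kb, and the OLIG E-box CAGATG at Cspg4 +11.9 kb. All are given on the plus strand of mm10.
Olig2 −33.4 kb, chr16:91191973-91192173: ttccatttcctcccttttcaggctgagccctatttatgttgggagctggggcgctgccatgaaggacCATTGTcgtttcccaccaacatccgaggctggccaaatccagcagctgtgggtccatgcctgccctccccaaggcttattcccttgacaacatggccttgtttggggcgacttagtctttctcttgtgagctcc
Nkx2-2 +5.5 kb, chr2:147180783-147180983: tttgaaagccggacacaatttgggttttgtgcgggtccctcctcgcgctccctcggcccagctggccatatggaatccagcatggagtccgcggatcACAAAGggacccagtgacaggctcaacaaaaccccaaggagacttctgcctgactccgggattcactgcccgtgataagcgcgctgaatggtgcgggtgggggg
Cspg4 +11.9 kb, chr9:56876804-56877004: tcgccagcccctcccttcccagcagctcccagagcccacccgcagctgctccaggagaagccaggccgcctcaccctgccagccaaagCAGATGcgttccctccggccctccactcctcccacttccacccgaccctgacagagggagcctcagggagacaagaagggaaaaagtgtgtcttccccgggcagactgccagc

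A further pair of sequences shows the Olig2 start region. The first is, among the Olig1 and Olig2 sites with a peak in all 6 libraries, the one with the largest rise from quiescence to activation once peaks were set against the genome-wide background, with the SOX core ACAAAG in capitals. The second is the promoter that was open in every library, taken from RefSeq on GRCm38.p6 with the SMAD box GGCGCC, known to be bound in response to BMP, in capitals. Both are on the plus strand.
Olig2 −2.8 kb, chr16:91222559-91222759: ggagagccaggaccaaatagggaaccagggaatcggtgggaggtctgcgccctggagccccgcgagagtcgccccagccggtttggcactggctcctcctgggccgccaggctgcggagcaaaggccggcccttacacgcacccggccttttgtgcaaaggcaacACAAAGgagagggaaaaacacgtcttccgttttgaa
Olig2 promoter, chr16:91225300-91225599: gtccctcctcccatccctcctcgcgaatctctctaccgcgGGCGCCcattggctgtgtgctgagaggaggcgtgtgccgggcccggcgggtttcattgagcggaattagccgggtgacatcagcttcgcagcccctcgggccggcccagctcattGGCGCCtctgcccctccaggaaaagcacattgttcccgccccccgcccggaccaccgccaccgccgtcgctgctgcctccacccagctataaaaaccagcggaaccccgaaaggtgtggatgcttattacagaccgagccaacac

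Peak height is given as fold enrichment, the read pileup at the summit over the local background expected by the peak caller, each with 1 added. Olig2 (ENSMUSG00000039830.9, mm10 chr16:91225457-91228677, plus strand) had 10 sites, of which 3, 5 and 7 were open in quiescent, activated and reactivated cells. Its tallest distal site in activated and reactivated cells lay far upstream. The intergenic site Olig2 −33.4 kb (chr16:91191232-91192435) had no peak in quiescent replicate 1 and a fold enrichment of 3.52 in quiescent replicate 2, against 7.44 and 8.39 in activated and 8.90 and 10.2 in reactivated libraries. Every activated and reactivated library was thus above the quiescent value. Its pileups were 45 reads in quiescent replicate 2, 104 and 93 in activated and 217 and 222 in reactivated libraries.

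Next to it, Olig2 −32.6 kb had no quiescent peak, with 2.68 and 3.29 in activated and 3.57 and 4.02 in reactivated libraries. Olig2 −22.3 kb was absent from both activated lists and at 1.99 in quiescent replicate 2, but reached 5.60 and 6.52 in reactivated cells. A weak site just upstream of the start, Olig2 −0.5 kb, was called in reactivated libraries alone, at 2.66 and 3.12.

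The Olig2 promoter itself (chr16:91225195-91225819) was open everywhere and level on this scale. Its fold enrichment was 6.64 and 7.05 in quiescent libraries, 6.69 and 6.36 in activated and 6.43 and 7.39 in reactivated libraries, with overlapping ranges. Its pileups, however, were 92 and 133, 138 and 112, and 246 and 239 reads. The local background there, relative to the genome-wide level, was 1.97 and 1.49 in quiescent libraries, 3.03 and 2.79 in activated and 5.76 and 4.83 in reactivated libraries, so that the divisor rose along with the peak. For this reason a second scale is shown beside fold enrichment: pileup at the summit over the genome-wide background of the library. It was added after the values had been seen. On it the promoter stood at 13.9 and 11.0, then 21.1 and 18.6, then 37.8 and 36.7. The median of all tested sites moved as well, at log2 values of 2.92 and 2.67 in quiescent libraries, 3.29 and 2.97 in activated and 4.25 and 4.23 in reactivated libraries. Relative to that median, the Olig2 promoter differed between reactivated and quiescent cells by 0.15 ± 0.17 (limma adjusted p = 0.541), which did not pass.

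At Olig2 −2.8 kb (chr16:91222176-91223208, over an exon of the transcript Gm49614) fold enrichment was 2.85 and 3.33 in quiescent libraries, 5.17 and 4.61 in activated and 4.98 and 5.96 in reactivated libraries. Over the genome-wide background it was 5.45 and 4.80, then 15.6 and 12.5, then 27.1 and 27.3. Quiescent libraries were the lowest on both scales and overlapped neither of the other states.

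Olig1 (ENSMUSG00000046160.6, chr16:91269772-91271933, plus strand) lies downstream of Olig2 and had 12 sites, of which 7, 7 and 8 were open in quiescent, activated and reactivated cells. Its promoter (chr16:91269504-91270063) had a fold enrichment of 8.28 and 7.63 in quiescent libraries, 7.17 and 7.97 in activated and 7.77 and 8.56 in reactivated libraries, and these ranges overlapped. The strong site Olig1 +34.6 kb (chr16:91303851-91304743), in an intron of the lincRNA Gm15966, was highest in quiescent libraries on this scale, at 8.85 and 7.75 against 6.89 and 7.31 in activated and 7.49 and 7.36 in reactivated libraries. Over the genome-wide background it stood at 18.5 and 15.1 in quiescent libraries, 24.6 and 19.6 in activated and 44.5 and 38.5 in reactivated libraries. Relative to the median of all sites on that scale this was a difference of 0.07 (limma adjusted p = 0.838) in activated and −0.13 (0.560) in reactivated against quiescent cells.

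Other Olig1 sites stood lower in quiescent cells on both scales. Olig1 +36.2 kb (chr16:91305436-91306222) had a fold enrichment of 4.00 and 3.82 in quiescent against 6.75 and 5.36 in activated and 6.16 and 6.52 in reactivated libraries. Olig1 −3.7 kb (chr16:91265937-91266586) had 4.53 and 5.56, then 6.73 and 6.70, then 7.45 and 6.77. Olig1 +11.0 kb had no quiescent peak, with 3.58 and 2.99 in activated and 5.60 and 5.72 in reactivated libraries.

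Olig1 +0.9 kb was called in both quiescent libraries, at 3.18 and 2.53, and in no other library. It was the 1 member site open in quiescent and closed in reactivated cells (1.90% of all sites). Over the genome-wide background it stood at 6.05 and 4.14 in quiescent libraries. At the nearby Olig1 promoter the local background was 1.82 and 1.62 times the genome-wide level in quiescent libraries. In activated libraries it was 2.51 and 2.15 times that level, and in reactivated libraries 4.22 and 3.97 times. A raised background means that more reads are needed for a call. No height is given without a call, so the direction at Olig1 +0.9 kb is not known.

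**Figure D2:**
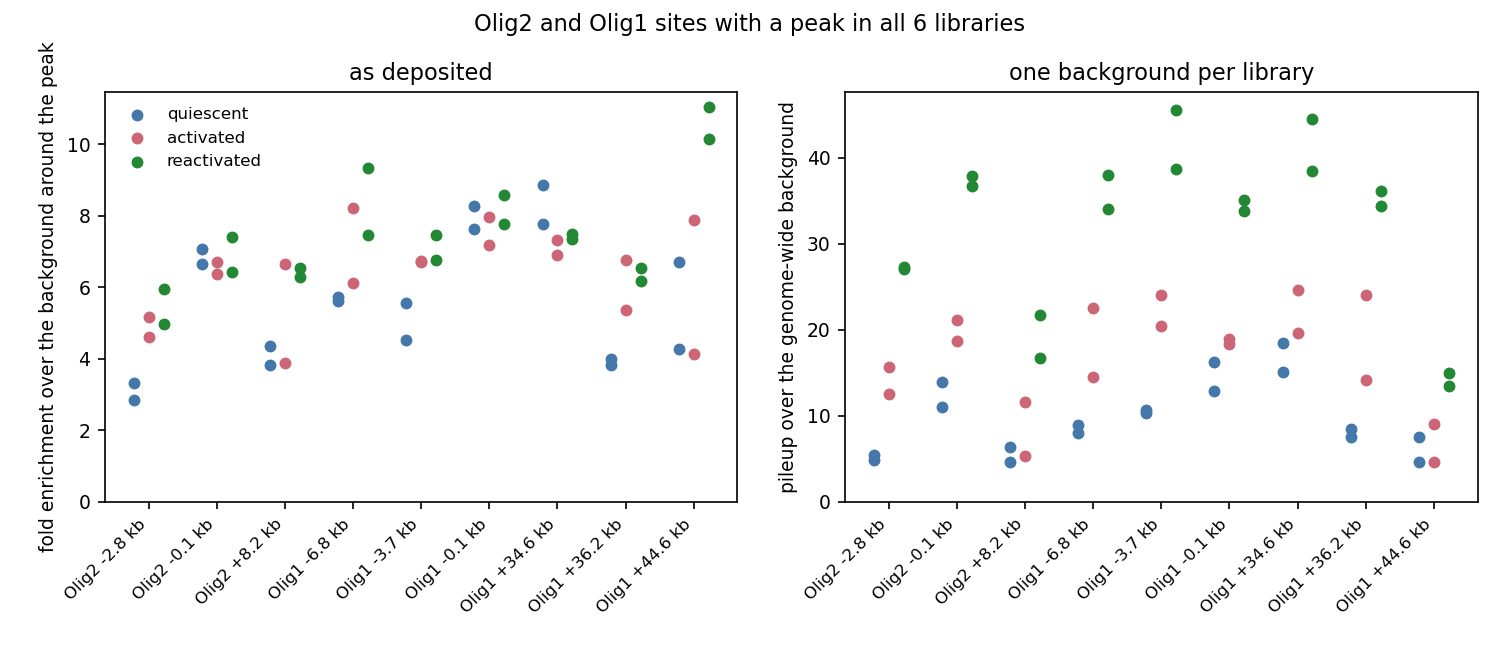
The 9 Olig2 and Olig1 sites with a peak in all 6 libraries, as fold enrichment over the local background and as pileup over the genome-wide background of each library; points are libraries. At the Olig2 promoter the first scale lies between 6.36 and 7.39 and the second between 11.0 in quiescent and 37.8 in reactivated cells, a span that includes the shift of all sites and did not pass the test relative to it.

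Sox10 (ENSMUSG00000033006.10, chr15:79154908-79165240, minus strand) had the fewest sites of the 8 genes, 2. It had no promoter peak in any ATAC-seq library, and 11 of the 13 sites in its window lay nearer to other genes, such as Polr2f and Micall1. Its main site, Sox10 −28.5 kb (chr15:79192598-79193934), in an intron of Gm10863, had no peak in quiescent replicate 1 and 2.90 in quiescent replicate 2. Activated libraries had 6.55 and 5.46 and reactivated libraries 8.39 and 7.18 there, all above the quiescent value. The second site, Sox10 −1.8 kb, had a peak in reactivated replicate 1, at 2.73.

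Nkx2-2 (ENSMUSG00000027434.11, chr2:147177546-147194243, minus strand) had 13 sites and 0 with a peak in all 6 libraries, and 1, 5 and 9 were open in quiescent, activated and reactivated cells. Its sites near the 3′ end of the gene had peaks in different sets of libraries. Nkx2-2 +8.1 kb had no peak in quiescent replicate 1 and 3.52 in quiescent replicate 2, against 7.31 and 5.24 in activated and 5.81 and 5.96 in reactivated libraries. Nkx2-2 +5.5 kb had peaks in activated (2.57 and 3.09) and reactivated libraries (2.28 and 4.59) and in no quiescent library. Between them, Nkx2-2 +7.4 kb had peaks in quiescent (3.50 and 2.45) and reactivated libraries (2.78 and 4.14) and in no activated library. Quiescent pileups there were low, at 27 and 31 reads where the lowest called in those lists were 17 and 25. Nkx2-2 had no site in the test over sites with a peak in all 6 libraries. Its 3 promoter sites lie within the antisense gene Nkx2-2os as well. The one at the start had peaks in activated replicate 1 (3.98) and in both reactivated libraries (3.74 and 4.97). Nkx2-2 +0.5 kb had its 1 peak in quiescent replicate 2 (3.44), and Nkx2-2 −1.0 kb its 1 peak in reactivated replicate 2 (2.83).

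Myrf (ENSMUSG00000036098.15, chr19:10208272-10240748, minus strand) had 5 sites, with 2, 3 and 3 open in quiescent, activated and reactivated cells. Its promoter (chr19:10240479-10240965) had a fold enrichment of 3.59 and 4.66 in quiescent libraries, 6.17 and 5.17 in activated and 11.7 and 9.03 in reactivated libraries. The states did not overlap there, with quiescent lowest and reactivated highest. The site Myrf −25.9 kb, in an intron of the neighbouring gene Dagla, had the same order, at 3.04 and 3.82, then 4.51 and 4.22, then 7.39 and 6.88. Relative to the median site of each library, log2 fold enrichment at neither site passed. Against quiescent cells the promoter differed by 0.24 in activated (limma adjusted p = 0.533) and 0.45 in reactivated cells (0.126). Reactivated differed from activated cells by 0.21 there (0.542). At Myrf −25.9 kb these were 0.13 (0.769), 0.19 (0.559) and 0.06 (0.888).

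Among the surface proteins of precursors, Cspg4 (ENSMUSG00000032911.6, chr9:56865033-56899870, plus strand) held its widest differences at intronic sites. Of its 10 sites, 4, 5 and 8 were open in quiescent, activated and reactivated cells. The promoter site, shared with the start of Odf3l1, had 3.85 and 3.68 in quiescent libraries, 2.72 and 3.77 in activated and 5.36 and 4.46 in reactivated libraries, and quiescent and activated ranges overlapped. At Cspg4 +3.4 kb (chr9:56868082-56868729) fold enrichment was 4.07 and 4.80 in quiescent libraries, 10.6 and 8.59 in activated and 9.17 and 9.10 in reactivated libraries. Deeper in the gene, Cspg4 +11.9 kb (chr9:56876645-56877152) had no quiescent peak, with 8.08 and 6.41 in activated and 8.90 and 6.82 in reactivated libraries. That made it the tallest of the 5 member sites open in activated and closed in quiescent cells.

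Pdgfra (ENSMUSG00000029231.15, chr5:75152292-75198215, plus strand) had 10 sites, of which 1, 1 and 6 were open in quiescent, activated and reactivated cells. No library had a peak at the first TSS. The main site, Pdgfra +4.1 kb (chr5:75155723-75156514), lies at an internal start site and had 6.05 and 4.13 in quiescent libraries, 10.4 and 7.44 in activated and 11.5 and 8.51 in reactivated libraries. Quiescent libraries were below both other states. Downstream of the gene, Pdgfra +70.7 kb had peaks in the reactivated libraries alone (5.60 and 5.01), as did Pdgfra −8.9 kb upstream (4.80 and 3.06). Pdgfra +71.8 kb had 6.27 and 8.58 in reactivated libraries and 3.97 in quiescent replicate 2.

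Mbp (ENSMUSG00000041607.17, chr18:82475146-82585637, plus strand), the myelin gene of the list, had 23 sites, with 8, 4 and 13 open in quiescent, activated and reactivated cells. The activated count rests on 1 library, since 11 Mbp sites had a peak in activated replicate 1 and 4 in activated replicate 2, against 10 and 13 in quiescent replicates 1 and 2. Its strongest upstream site, Mbp −12.8 kb (chr18:82462072-82462551), was lower in activated libraries, at 9.02 and 6.70, than in quiescent (10.7 and 11.1) or reactivated libraries (10.8 and 13.2). Over the genome-wide background it stood at 14.8 and 15.4, then 10.2 and 8.82, then 16.9 and 17.0, so activated was lowest on both scales. Mbp +92.7 kb had peaks in quiescent (6.19 and 3.29) and reactivated libraries (5.04 and 5.46) and in no activated library.

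Within the Mbp gene body other sites had other orders. Mbp +56.9 kb was at 4.73 and 4.13 in quiescent libraries, 8.88 and 6.35 in activated and 11.6 and 14.2 in reactivated libraries. Mbp +63.1 kb was at 8.41 and 9.51, 9.98 and 10.1, and 16.0 and 15.1. The annotated promoter had a peak in quiescent replicate 2 (2.60) and in reactivated replicates 1 and 2 (5.25 and 3.89), and in no activated library. Activated replicate 2 had the shortest peak list of the series, and its part in these absences was not tested.

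**Figure D3:**
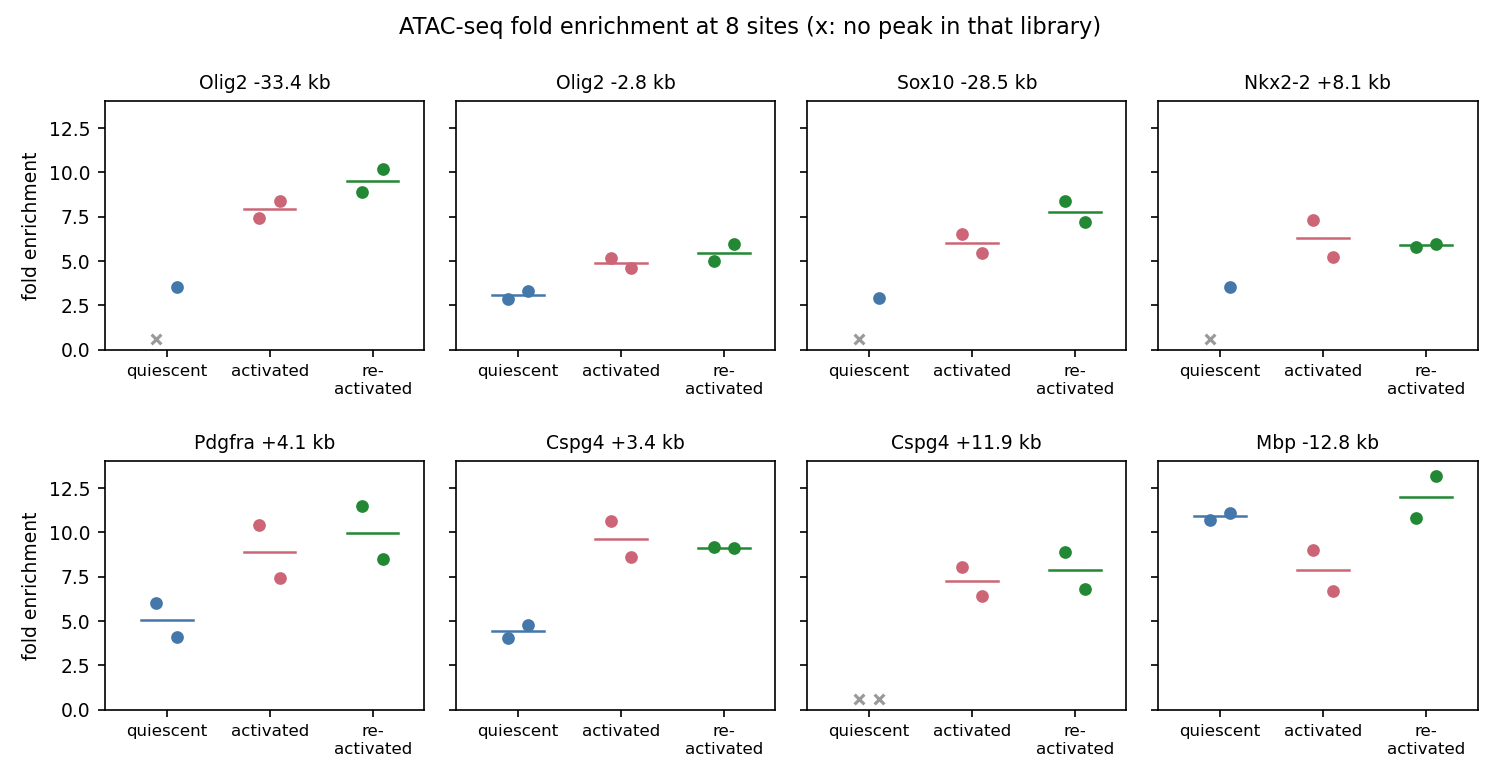
Fold enrichment over the local background in each of the 6 libraries at 8 sites of the lineage genes; points are libraries, bars are the mean where both libraries of a state have a peak, and crosses mark libraries without one. Activated and reactivated points lie above the quiescent ones except at Mbp −12.8 kb, where activated libraries (9.02 and 6.70) are the lowest. The 8 sites were picked for display, most of them as higher in activated cells, so these orders follow from the choice. Of all sites with a peak in all 6 libraries, 37.5% had activated above quiescent without overlap and 85.3% reactivated above quiescent.

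Differences were tested with limma on log2 fold enrichment, centred on the median of each library, over the 23116 sites with a peak in all 6 libraries. Benjamini-Hochberg adjusted p-values were taken over all of them, and 18 sites of the lineage genes were among them. From quiescence to activation, 1 member site rose (6.35% of all tested sites did) and 1 fell (7.05%), which is near the background. Cspg4 +3.4 kb rose by 0.89 ± 0.20 (SE) on the log2 scale, with a limma adjusted p of 0.00359. Mbp −12.8 kb fell by 0.71 ± 0.16, with a limma adjusted p of 0.00426. The first call was lost without quiescent replicate 1, and the second without quiescent replicate 2 or without activated replicate 2. Without centring, the difference at Mbp −12.8 kb was −0.49 with a limma adjusted p of 0.126, and 3 member sites rose and 0 fell, against 2186 and 442 of all 23116 sites.

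The remaining 16 sites did not pass. Differences for the nearest were 0.59 ± 0.21 at Pdgfra +4.1 kb (limma adjusted p = 0.0660) and 0.54 ± 0.19 at Mbp +56.9 kb (0.0656). For Olig2 −2.8 kb the difference was 0.44 ± 0.24 (0.230), for the Olig1 promoter −0.29 ± 0.19 (0.341) and for the Olig2 promoter −0.29 ± 0.21 (0.383). Activated libraries lay above quiescent ones without overlap in uncentred fold enrichment at 10 of 18 sites (37.5% of all tested sites) and below at 2 (11.5%).

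On the genome-wide background scale, centred and tested the same way, more sites of the precursor genes differed. Here 6 of 18 sites rose from quiescence to activation (8.06% of all sites) and 1 fell (7.99%). The largest rise was at Cspg4 +3.4 kb, by 1.22 ± 0.20 (limma adjusted p = 1.35e-05), followed by Olig2 −2.8 kb with 1.11 ± 0.20 (6.97e-05) and Olig1 +36.2 kb with 0.87 ± 0.18 (0.000494). Olig1 −6.8 kb rose by 0.77 ± 0.18 (0.00185), Pdgfra +4.1 kb by 0.76 ± 0.24 (0.0221) and Olig1 −3.7 kb by 0.75 ± 0.17 (0.00129). Mbp −12.8 kb fell by 1.0 ± 0.20 (0.000232), and without centring its difference was −0.67 (0.0750). The Olig2 promoter had a difference of 0.35 ± 0.17 (0.163) and the Olig1 promoter 0.03 ± 0.17 (0.927), neither past the threshold.

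With each library left out in turn, 4 to 6 of these sites rose and Mbp −12.8 kb fell each time. The rise of Pdgfra +4.1 kb was lost without quiescent replicate 2 or activated replicate 1, and that of Olig1 −6.8 kb without activated replicate 1. Of the 6 sites, 4 lie in the shared Olig1 and Olig2 locus and are not independent of one another. This scale was chosen after the values were seen, as were Olig1 −6.8, −3.7 and +36.2 kb, Olig2 −2.8 kb, Nkx2-2 +5.5 kb and Mbp +56.9 kb for display.

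**Figure D4:**
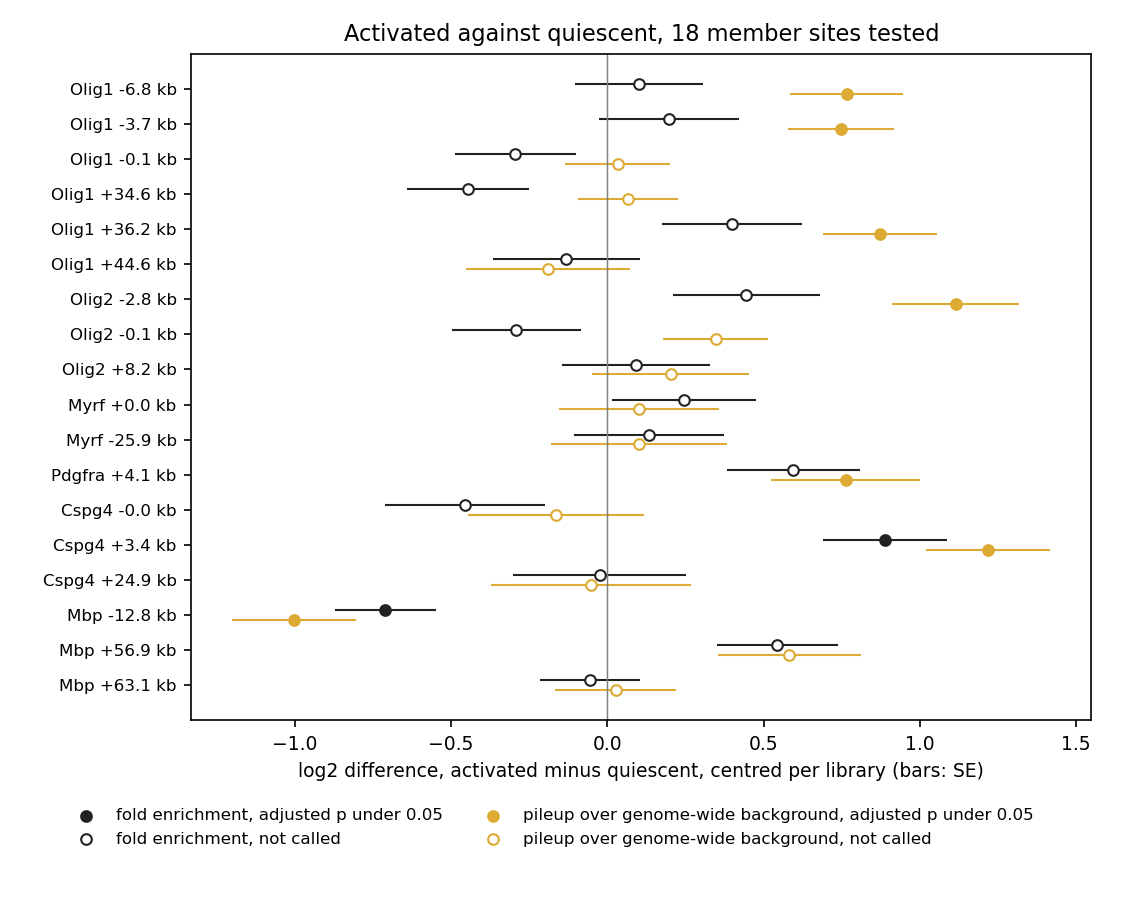
Activated minus quiescent difference on the log2 scale, with its SE, at the 18 tested sites, for fold enrichment over the local background and for pileup over the genome-wide background. Filled points have a limma adjusted p under 0.05: 2 sites on the first scale and 7 on the second, with Mbp −12.8 kb the one below 0 on both.

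Reactivated cells were compared with both other states in the same fit. Their median log2 fold enrichment over the tested sites was 3.38 and 3.43, above 2.48 to 2.89 in the other libraries, so every difference here is relative to the median site. From quiescence to reactivation 1 member site rose (11.5% of all sites), Mbp +56.9 kb by 0.66 ± 0.19 (limma adjusted p = 0.00989), and 4 fell (25.7%). Those that fell relative to the median were Olig1 +34.6 kb by 1.03 ± 0.20 (0.000372), the Olig2 promoter by 0.86 ± 0.21 (0.00253), the Olig1 promoter by 0.84 ± 0.19 (0.00189) and Mbp −12.8 kb by 0.74 ± 0.16 (0.00124). Without centring, the differences at the Olig2 and Olig1 promoters were 0.01 and 0.04. Against activated cells, 0 member sites rose (7.66%; 0 also at an unadjusted limma p under 0.05, which 12.7% of all sites reached) and 4 fell relative to the median (14.5%), namely both Olig promoters, Olig1 +34.6 kb and Cspg4 +3.4 kb. The rise of Mbp +56.9 kb was lost without quiescent or reactivated replicate 2. Each of the 4 falls against activated cells was lost without either reactivated replicate and without at least 1 activated replicate.

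In uncentred fold enrichment, reactivated libraries lay above quiescent ones without overlap at 13 of 18 sites (85.3% of all tested sites) and above activated ones at 9 (77.4%).

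Over the genome-wide background, centred on the median, 6 member sites rose from quiescence to reactivation (11.7%) and 1 fell (19.9%). Without centring 17 rose (90.2% of all sites) and 0 fell (0.298%). Olig2 −2.8 kb, Olig1 −6.8, −3.7 and +36.2 kb, Cspg4 +3.4 kb and Mbp +56.9 kb were the ones that rose relative to the median. On centred fold enrichment Olig2 −2.8 kb was at −0.05, and Olig1 −6.8, −3.7 and +36.2 kb at −0.32, −0.37 and −0.18, none past the threshold. Cspg4 +3.4 kb was at 0.17 and Mbp +56.9 kb at 0.66. Mbp −12.8 kb was the one that fell relative to the median, by 1.28 (limma adjusted p = 3.11e-06). Its own values were 14.8 and 15.4 in quiescent and 16.9 and 17.0 in reactivated libraries. With a library left out, 3 to 6 rose, fewest without reactivated replicate 2. This comparison shares the quiescent libraries with that of activation. From activation to reactivation 0 rose (4.93%) and 1 fell relative to the median (9.65%), Cspg4 +3.4 kb by 0.63 (limma adjusted p = 0.0269). That call was lost without either activated replicate or either reactivated replicate. Values at the site itself were 19.0 and 14.8 in activated and 24.9 and 21.9 in reactivated libraries. Without centring 16 member sites rose from activation to reactivation (84.7% of all sites) and 0 fell (0.277%).

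H3K4me3 marked 7 of the 8 genes and not Sox10, with 11 quiescent and 10 activated peaks, and 6 of the 8 had it within 1 kb of a TSS in both states (59.3% of all genes). With 1 library per state there is no replicate check. Values are fold enrichment over input as a mean over the called peak, unlike the summit values of ATAC-seq. Olig1 and Olig2 carried the strongest and widest mark. The Olig2 domain stood at 41.2 in quiescent and 43.0 in activated cells and measured 9251 and 9228 bp, wider than 99.8% and 99.9% of the peaks in those lists. The Olig1 domain stood at 41.9 and 62.4, but its called width fell from 9413 bp (chr16:91263568-91272980) to 3675 bp (chr16:91269179-91272853). That is 39.0% of the quiescent width, and 2.66% of all overlapping pairs were narrowed to under 50%. The Olig1 means thus cover regions of different width, and the part of the narrower call in the higher activated value was not tested. The stretch lost from the call lies upstream of the gene and holds Olig1 −3.7 kb, where ATAC-seq pileup over the genome-wide background was higher in activated cells.

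At Pdgfra +4.2 kb, over the internal start site, H3K4me3 was 27.7 in quiescent and 16.3 in activated cells, 1.70-fold lower at a similar width (1626 and 1648 bp). It was the 1 of 10 pairs past 1.5-fold downward (6.71% of all pairs), and 0 were past it upward (1.46%). The ATAC-seq peak at this site had its lower values in quiescent cells, so mark and accessibility had opposite orders there. Cspg4 stood at 20.3 and 15.7, Nkx2-2 +8.3 kb at 15.7 and 11.3, Mbp at 10.2 and 11.3 and Myrf at 5.16 and 7.21. A small Nkx2-2 peak of 246 bp, at 3.34, was called in quiescent cells alone (9.11% of quiescent peaks had no activated counterpart). The median ratio of activated to quiescent over all 15660 pairs was 0.926.

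**Figure D5:**
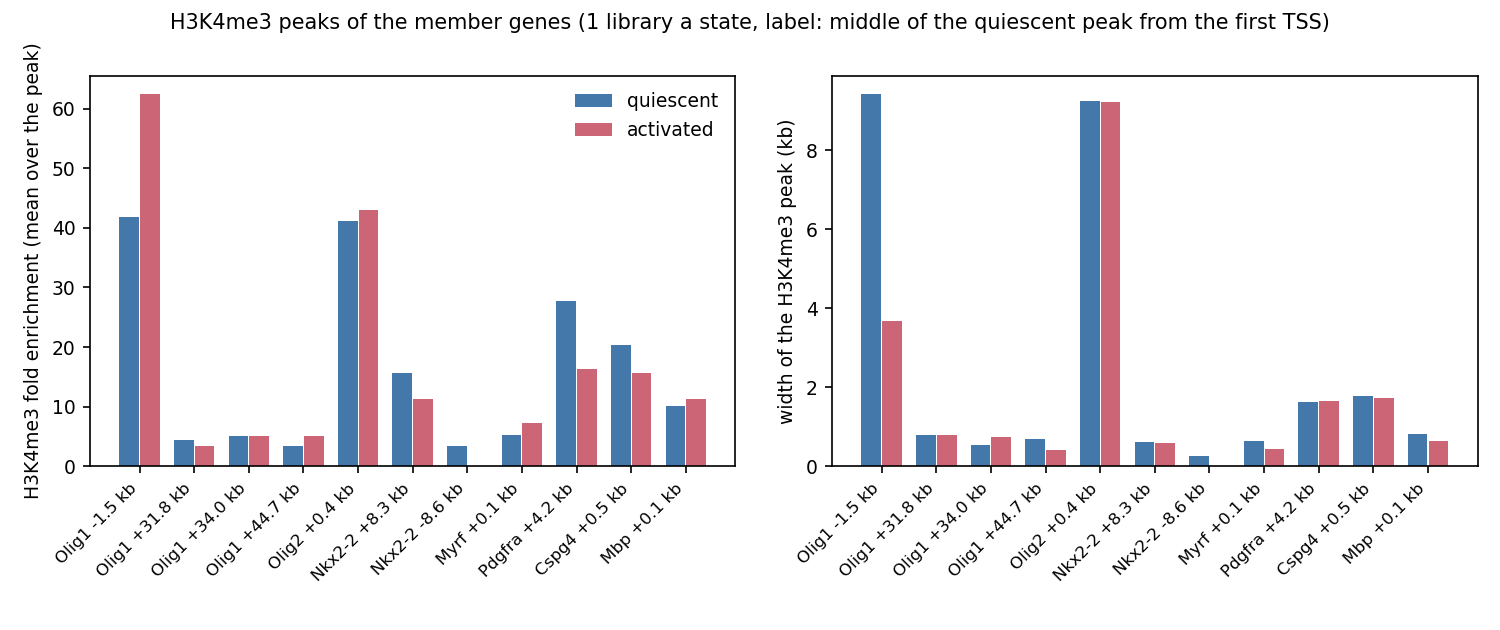
H3K4me3 fold enrichment over input (mean over the called peak) and peak width in kb at the 11 peaks of the lineage genes, with 1 library for each of the quiescent and activated states. Bars start at 0. The Olig1 domain narrows from 9413 to 3675 bp while the Olig2 domain keeps its width.

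Other genes of the lineage were read the same way. Of 18 other precursor genes, 8 had a promoter peak in all 6 libraries, including Sox8, Ptprz1 and Vcan (52.2% of all genes did). Per library 11 and 11 of these promoters had a peak in quiescent libraries, 16 and 14 in activated and 17 and 18 in reactivated cells. Of all 21829 genes, 12291 and 12582, 12673 and 12282, and 14315 and 14275 had one in those libraries. Around them lay 283 sites, of which 26 were open in activated and closed in quiescent cells (4.24% of all sites) and 12 the reverse (6.26%), and of 46 tested, 4 rose and 1 fell (6.35 and 7.05% of all tested sites). Of 20 other myelin and oligodendrocyte genes, 5 had a promoter peak in all 6 libraries (Cldn11, Ugt8a, Fa2h, Trf and Zfp536), and 6 had none in any, among them Mog, Mag, Mobp, Ermn and Gjb1. Of all 21829 genes 7086 had none, a similar share. Around the myelin genes lay 100 sites, with 5 open in activated and closed in quiescent cells and 4 the reverse, and of 14 tested 1 rose and 0 fell.

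As a marker list of another cell type, astrocyte genes had promoter peaks at 7 and 7 of 10 in quiescent libraries, 6 and 5 in activated and 9 and 9 in reactivated libraries, with Gfap at none. Of the 92 sites around them 2 were open in activated and closed in quiescent cells (4.24% of all sites) and 9 the reverse (6.26%). Neuron genes had them at 4 and 3 of 10, then 6 and 5, then 7 and 7, and of the 69 sites around these 5 were open in activated and closed in quiescent cells and 1 the reverse. The part of these cell types in the values at the lineage genes was not tested.

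Short motifs were counted on both strands within 100 bases of each summit. The OLIG E-box CAGATG was in 17 of the 85 sites, or 20.0%, against 17.5% of all sites. The SOX cores ACAATG and ACAAAG, which do not overlap each other, were in 8 and 16 sites (11.6 and 19.7% of all sites), and the NFI core TTGGC was in 30 (44.7%). GGCGCC was in 9 sites, or 10.6%, against 6.20% of all sites, at a median GC content of 55.7% in member sites and 52.2% overall. In the RefSeq promoter of Olig2 it occurred at both capitalised places, and 11.9% of 32851 RefSeq promoters of 300 bases held it. A match to these letters is not a measured binding site.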

How the data were processed

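The deposited files were MACS2 peak lists of 6 ATAC-seq libraries and 2 H3K4me3 libraries on mm10. The submitters' processing notes name Trim Galore 0.4.0, Bowtie2 2.2.5, SAMtools 1.3.1, Picard 1.88 and HOMER. The authors' lists hold fold enrichment (a ratio over local background, or over input for H3K4me3), −log10 p-values and q-values, and a display score that was not used. Peaks were called per library. Members and gene lists were chosen with earlier results of these data known. Peaks on autosomes, X and Y that overlapped or abutted were merged into sites, the highest summit standing for each library. A promoter site lies within 1 kb of a protein-coding TSS. States were compared with limma 3.58.1 in R 4.3.3 (trend, all 6 libraries, no block), with Benjamini-Hochberg adjustment. Summit pileups were recovered as whole reads from fold enrichment and p-value within 0.02%. Fits were tested on simulated data. Sites named by rule were promoters, each gene's strongest site, called sites and up to 20 sites open in some and closed in another state. Figures used matplotlib 3.10.9. Sites on chromosome 18 are given without sequence, and read totals were not used. Alternatives were other scalings, stricter lists and each library left out. Some genes of the lists and 1 searched motif are not reported here.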

Additional observations from a re-analysis of the deposited data

How the results depend on the processing

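Member sites called were 2 for activated against quiescent, 5 for reactivated against quiescent and 4 for reactivated against activated cells. With each library left out they ranged from 1 to 2, 4 to 6 and 0 to 5. Percentiles of fold enrichment gave 0, 1 and 0, and missing peaks set to the lowest value of the library 4, 0 and 0, where the filled value largely fixes the direction. Pileup over the genome-wide background, added after the data were seen, gave 7 for activated against quiescent (8.06% of all sites higher, 7.99% lower). It gave 1 for reactivated against activated (4.93 and 9.65%). Without centring it gave 8, 17 and 16, each of them higher. In that fit 14.3, 90.2 and 84.7% of all sites were higher and 1.80, 0.298 and 0.277% lower. Fold enrichment without centring gave 11 and 7 of 18 for the reactivated comparisons, each of them higher. Of all 23116 sites 15756 and 12165 were higher and 126 and 109 lower. For reactivated against activated, quantile normalization gave 2 of 18, each lower, where 2062 of all 23116 sites were lower. A −log10 q of at least 10 gave 1 of 11, lower, where 1709 of 14397 sites were. Lists of equal length gave 2 of 16, each lower, where 2639 of 19789 sites were. Replicate numbers did not pair the libraries (correlations −0.00133, 0.0423 and −0.0173): with a replicate block the counts were 3, 5 and 4, the 1 added being Pdgfra +4.1 kb (adjusted p = 0.0411 by limma).

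Signs turned in the reactivated comparisons. Against quiescent, without centring, the Olig1 promoter was at 0.0372 (pileup 1.254), the Olig2 promoter at 0.0104 (pileup 0.15 centred, 1.59 not), Mbp −12.8 kb at 0.13 (pileup 0.17) and Olig1 +34.6 kb, as pileup, at 1.31. Against activated, the Olig1 promoter was at 0.11 (pileup 0.89), Olig1 +34.6 kb at 0.0648 (0.91), the Olig2 promoter at 0.08 (0.91) and Cspg4 +3.4 kb, as pileup, at 0.48. For activated against quiescent, Olig1 −3.7 kb ranged from −0.0344 to 0.39 with a library left out. Over all sites, 47.4, 30.8 and 34.5% of calls were higher, but without centring 83.2, 99.2 and 99.1%, and 88.9% for activated against quiescent as uncentred pileup.

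With −log10 q of at least 10, sites open in all states were 11, those open in activated and closed in quiescent cells 2, those open in reactivated cells alone 10, and member peaks 42 in quiescent and 56 in activated cells. Lists of equal length gave 0 open in reactivated cells alone and 77 reactivated member peaks. Leaving out a library gave 18 to 25 sites open in all states, 5 to 12 open in activated and closed in quiescent cells, 3 to 10 the reverse and 7 to 17 in reactivated cells alone. The state of that library was then called open or closed from its other library, which changes the rule. With a limit of 25% upward and 20% downward, 7 of 10 H3K4me3 pairs passed, 3 higher and 4 lower (6.83 and 23.6% of all pairs). A further 68 counts stayed within 1.5 times of those reported, and among single sites 177 values kept direction and call, 57 lost the call and 12 gained one. The causes were not tested.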
